A study of Mus musculus with 7 samples.

Results

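The genes described are 7 matrix metalloproteinases (Mmp2, Mmp8, Mmp9, Mmp12, Mmp13, Mmp14 and Mmp19) and 3 tissue inhibitors of metalloproteinases (Timp1, Timp2 and Timp3), taken by symbol as 10 of the 53379 genes of the deposited table. They were measured by RNA sequencing in macrophages of MC38 tumours, a mouse colon carcinoma line grown in C57BL/6J mice, sorted as cells positive for CD45, CD11b and F4/80 at day 21 after implantation. The groups were 3 Gpr65-knockout mice (KO) and 4 Gpr65-wild-type mice (WT), all fed a high-fat diet, with 1 library a mouse. Gpr65 is a receptor that senses extracellular protons. No promoter or cell type that would restrict the knockout, no age and no breeding scheme is stated by the labels.

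Matrix metalloproteinases are zinc-dependent enzymes that cut collagens, elastin and other matrix proteins, and also chemokines and cytokines. Most are secreted as inactive proenzymes, and a few, such as Mmp14, sit in the cell membrane. The inhibitors bind the active site, so the balance of protease and inhibitor sets how far the matrix is opened. Tumour macrophages are known as a source of several of these proteases.

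The libraries held 22449772 to 30483733 counts, and expression is given as CPM, the read count scaled to library size with TMM factors. Gpr65 had 20 to 30 counts in KO libraries and 1785 to 2912 in WT libraries. The genes of the sort were present in every mouse, with Ptprc (CD45) at 498 to 923 CPM in KO and 584 to 718 CPM in WT mice, Itgam (CD11b) at 196 to 203 and 121 to 293 CPM, and Adgre1 (F4/80) at 495 to 1332 and 327 to 661 CPM. KO mouse 1 stood apart from the other libraries on the principal component that held 44.2% of the variance, where 940 of the genes tested were without a read in it (51 to 281 in each other library).

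The comparison asks how the loss of Gpr65 relates to the expression of these genes. The mean level in KO mice was below that in WT mice for the macrophage elastase Mmp12, the collagenases Mmp13 and Mmp8, Mmp19 and the gelatinase Mmp9, at 0.133 to 0.301 of the WT mean. The gelatinase Mmp2 had the opposite direction, at 1.90 of the WT mean. Mmp14 and Timp2, whose levels per length stood among the highest, had KO means of 1.13 and 0.913 of the WT mean. None of these differences passed edgeR's test across all genes, and WT mice differed among themselves by up to 12.9-fold for the same genes. In bulk samples, fewer cells of a type and less RNA per cell cannot be told apart.

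Of the 10 genes 9 passed the filter on low counts, and Timp3 did not. By edgeR's quasi-likelihood test with Benjamini-Hochberg adjustment over 16234 genes, 0 of the 9 were called at an adjusted p under 0.05, where 0.037% of all genes tested were called (0.0123% lower and 0.0246% higher in KO). At an unadjusted p under 0.05 there were 4 lower (Mmp19, Mmp12, Mmp8 and Mmp9) and 1 higher (Mmp2), where 5.37% of all genes reached that value (2.79% lower and 2.57% higher). The fitted level was at least 2-fold lower in KO mice for 6 of the 9, where this held for 5.27% of all genes. Among genes of average log2 CPM of at least 4 it held for 1.1%. That share does not cover Mmp8 and Timp1, 2 of the 6, at average log2 CPM of 2.73 and 3.72. DESeq2 called 1 of the 9, Mmp19 (adjusted p = 0.0438), where it called 0.704% of all genes (0.438% lower), and limma voom with library weights called 0, where it called 0.0554%. Fold changes were negative for 7 of the 9, with a median of -1.73 on the log2 scale, against 50.3% negative and a median of -0.002 over all genes tested. The genes were chosen with earlier results of these data known, so these counts describe the set and are no test of it.

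**Figure D1:**
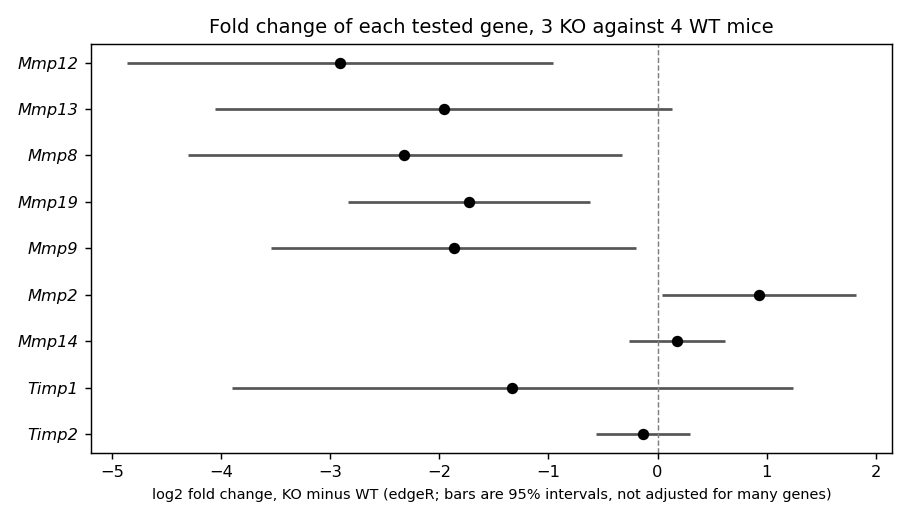
Fold change of each tested gene on the log2 scale (x axis, KO minus WT), with bars for the 95% interval of the edgeR fit to 3 KO and 4 WT mice. The intervals of Mmp12, Mmp8, Mmp19 and Mmp9 lie below 0 and that of Mmp2 above 0 before adjustment, and the intervals of Mmp14 and Timp2 are the narrowest.

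Levels of different genes were compared as CPM per kb of merged exons. In KO mice the highest was Mmp14 at 128 ± 24.7 (SD, n = 3), followed by Timp2 at 61.1 ± 9.16, Mmp13 at 20.2 ± 15.4, Mmp2 at 12.9 ± 6.38, Mmp12 at 12.1 ± 8.10, Timp1 at 7.88 ± 11.1, Mmp9 at 5.10 ± 5.59, Mmp19 at 1.95 ± 0.474 and Mmp8 at 0.825 ± 0.434 CPM per kb. The ranges of neighbours in this order overlapped from Mmp13 down to Mmp19, and were apart between Mmp14 and Timp2, between Timp2 and Mmp13, and between Mmp19 and Mmp8. In WT mice the order was Mmp14 at 113 ± 13.7 (SD, n = 4), Mmp12 at 91.1 ± 85.3, Mmp13 at 78.7 ± 86.4, Timp2 at 67.0 ± 11.2, Timp1 at 19.9 ± 18.6, Mmp9 at 18.7 ± 10.1, Mmp2 at 6.79 ± 2.34, Mmp19 at 6.49 ± 3.88 and Mmp8 at 4.12 ± 3.89 CPM per kb. There the ranges of neighbours overlapped, except those of Timp2 and Timp1 and those of Mmp8 and Timp3, which was at most 0.121 CPM per kb. Mmp14 was the highest of the 10 genes in 5 of the 7 mice. In WT mice 2 and 4 Mmp12 was highest, with 203 and 113 CPM per kb beside 112 and 94.9 for Mmp14.

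Summed over the 7 proteases, the level was 152, 196 and 197 CPM per kb in KO mice 1 to 3, against 219, 549, 176 and 332 CPM per kb in WT mice 1 to 4. The inhibitors summed to 72.5, 72.3 and 62.2 CPM per kb in KO mice, against 70.8, 95.6, 58.3 and 123 CPM per kb in WT mice. WT mice 2 and 4 were the highest in each sum, and the groups overlapped in both. The ratio of the protease sum to the inhibitor sum was 2.09, 2.71 and 3.16 in KO mice and 3.09, 5.75, 3.02 and 2.70 in WT mice, so that it exceeded the KO range only in WT mouse 2. Mmp14 made up 66.9% to 77.2% of the protease sum in KO mice, against 58.1% and 67.1% in WT mice 1 and 3 and 20.4% and 28.6% in WT mice 2 and 4. With the length of the principal transcript in place of merged exons, Mmp14 was again the highest in 5 of 7 mice. The protease to inhibitor ratio was then 4.08, 5.28 and 5.77 in KO mice and 5.66, 9.09, 5.72 and 4.50 in WT mice. It again exceeded the KO range only in WT mouse 2, but its size depended on the length used.

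**Figure D2:**
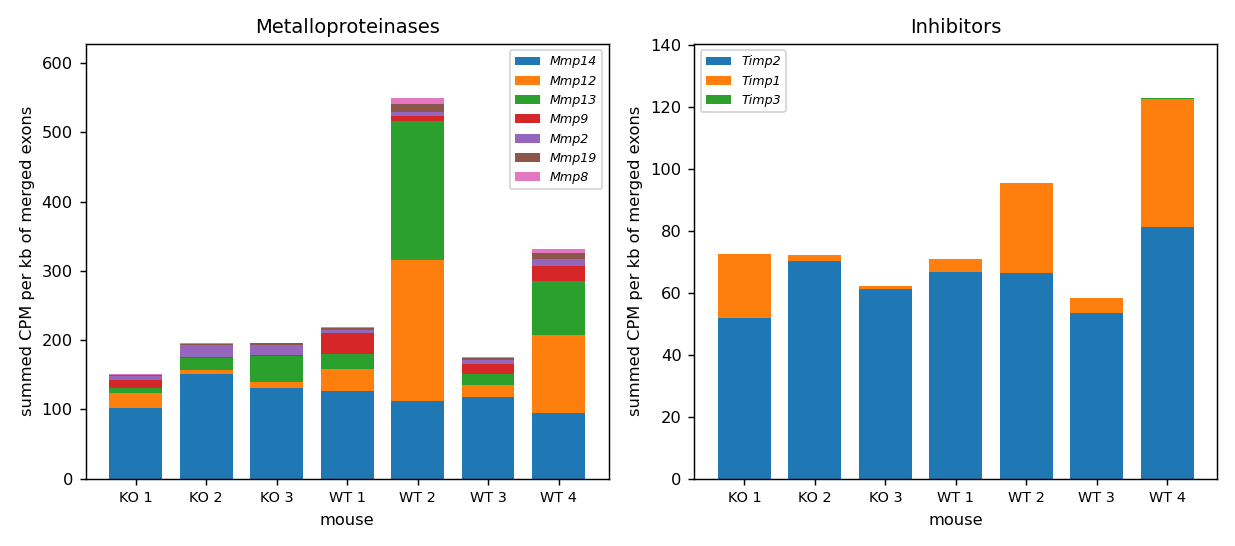
Level of each protease (left) and inhibitor (right) in each mouse, stacked, as CPM per kb of merged exons, with KO mice left of WT mice. Mmp12 and Mmp13 fill most of the columns of WT mice 2 and 4, while the Mmp14 and Timp2 parts are of like height in all 7 mice, and Timp3 is too low to be seen.

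Mmp12, Mmp13 and Mmp8 lie in a cluster of 10 metalloproteinase genes that spans 427 kb of chromosome 9 (GRCm38, 7272514 to 7699585). Mmp12 encodes macrophage elastase, which cuts elastin and is made mostly by macrophages. It lies on the plus strand at 7344381 to 7369499, and its exons share 157 bases with Mmp1b of the opposite strand, which held 5 counts over all libraries. Mmp12 measured 155, 47.6 and 60.7 CPM in KO mice 1 to 3, against 232, 1466, 125 and 815 CPM in WT mice 1 to 4. WT mice 2 and 4 were far above all others, and WT mouse 3 lay below KO mouse 1, so the groups overlapped. On the log2 scale KO differed from WT by -2.91 (SE 0.86, adjusted p by edgeR 0.761), or 0.133 of the WT level with a 95% interval of 0.0345 to 0.514. Without WT mouse 2 it was -2.15, and without KO mouse 1 -3.63.

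Mmp13, the collagenase that cuts fibrillar collagens, lies at 7272514 to 7283331 on the plus strand. It measured 19.3, 43.3 and 99.3 CPM in KO mice, against 55.6, 538, 41.9 and 206 CPM in WT mice. WT mice 2 and 4 were again the highest, but KO mouse 3 exceeded WT mice 1 and 3. The difference on the log2 scale was -1.96 (SE 0.92, adjusted p by edgeR 0.955). It was -0.91 without WT mouse 2, -2.75 without KO mouse 3, and -0.30 by limma voom with library weights.

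Mmp8, the collagenase best known from neutrophil granules, lies at 7558456 to 7568485 on the plus strand. It measured 3.21, 1.46 and 1.32 CPM in KO mice, against 1.75, 21.2, 2.65 and 14.4 CPM in WT mice. The counts behind these values were 94, 36 and 36 in KO and 42, 550, 80 and 393 in WT libraries. KO mouse 1 lay above WT mice 1 and 3, and the fit gave a log2 fold change of -2.32 (SE 0.88, adjusted p by edgeR 0.901). Without WT mouse 2 it was -1.64, and by limma voom -1.29.

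Of the other 7 genes of the cluster, the stromelysin Mmp10 alone was tested, with 3.38, 0 and 0 CPM in KO mice against 1.16, 3.32, 0.896 and 1.68 CPM in WT mice. The stromelysin Mmp3 held 77 counts in all and was highest in WT mice 2 and 4, at 1.54 and 1.10 CPM, with 0, 0.285 and 0 CPM in KO mice and 0 in WT mice 1 and 3. Mmp27 held 71 counts, and Mmp1a, Mmp20 and Mmp7 held 0 in every library.

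The bases before the annotated starts are shown for Mmp12 and Mmp13, which were high in the same WT mice, and for Mmp14, which varied little. The entries shown for Mmp12 and Mmp13 are the 2 of the set that held a match to the AP-1 motif. The sequences are RefSeq promoters of GRCm38.p6, 250 bases up to the base before the start, each on the plus strand, and capitals mark matches to the AP-1 motif. They cover chr9:7347124-7347373 for Mmp12 (the downstream of its 2 annotated starts, so within the annotated gene), chr9:7272264-7272513 for Mmp13 and chr14:54431348-54431597 for Mmp14.
Mmp12: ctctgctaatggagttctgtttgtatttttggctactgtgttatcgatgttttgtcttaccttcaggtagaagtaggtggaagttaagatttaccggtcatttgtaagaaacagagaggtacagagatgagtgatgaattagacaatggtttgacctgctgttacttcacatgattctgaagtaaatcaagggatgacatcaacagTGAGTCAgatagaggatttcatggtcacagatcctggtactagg
Mmp13: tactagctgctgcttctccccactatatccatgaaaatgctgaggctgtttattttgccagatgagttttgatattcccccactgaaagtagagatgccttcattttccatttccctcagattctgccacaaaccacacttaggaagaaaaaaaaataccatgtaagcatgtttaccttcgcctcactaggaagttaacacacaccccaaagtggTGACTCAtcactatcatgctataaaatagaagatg
Mmp14: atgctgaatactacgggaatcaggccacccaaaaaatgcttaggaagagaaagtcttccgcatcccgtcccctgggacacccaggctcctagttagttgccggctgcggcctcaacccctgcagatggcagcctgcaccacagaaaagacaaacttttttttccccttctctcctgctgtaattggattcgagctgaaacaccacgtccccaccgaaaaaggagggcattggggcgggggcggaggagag
AP-1 is the transcription factor of Fos and Jun proteins. Its motif was searched as TGAGTCA or the reverse complement TGACTCA, and 4.46% of 32851 promoters of this length held it. The match began 44 bases before the start in Mmp12 and 35 bases before it in Mmp13. The entry for the upstream start of Mmp12 and those of Mmp8, Mmp14, Timp1, Timp2 and Timp3 held no match in these 250 bases. Mmp8 and Timp1 were nevertheless also highest in WT mice 2 and 4, so genes with and without a match shared that pattern. The cAMP response element TGACGTCA, in 1.55% of all promoters, was in none of the 8 entries found for 7 of the genes. These matches are letters in a sequence, and binding was not measured.

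Mmp19, a protease of basement membrane proteins, lies on chromosome 10 (128790910 to 128800824, plus strand). It measured 7.86, 4.96 and 7.87 CPM in KO mice, against 11.7, 36.8, 10.6 and 32.6 CPM in WT mice. Each KO mouse lay below each WT mouse, which held for 1 of the 9 genes tested, where groups did not overlap for 6.12% of all genes (3.33% lower in KO). Its log2 fold change of -1.73 (SE 0.49, adjusted p by edgeR 0.739) did not pass, and over the 16 alternatives it stayed between -1.99 and -1.15 with an adjusted p between 0.0438 and 1. Mmp19 shares 789 exon bases with Tmem198b of the opposite strand, and no source used here states if reads were assigned by strand. Tmem198b had 211, 109 and 187 counts in KO and 173, 138, 223 and 204 in WT libraries, beside 230, 122 and 214 and 282, 954, 319 and 891 for Mmp19, so reads of the shared stretch are uncertain.

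The gelatinases Mmp9 and Mmp2 cut denatured collagen and basement membrane collagen. Mmp9 (chromosome 2, 164940780 to 164955850, plus strand) measured 40.9, 7.16 and 6.14 CPM in KO mice, against 108, 24.7, 53.4 and 78.2 CPM in WT mice. KO mice 2 and 3 were below every WT mouse, whereas KO mouse 1 exceeded WT mouse 2. KO minus WT was -1.87 on the log2 scale (SE 0.74, adjusted p by edgeR 0.917), and -3.32 without KO mouse 1 (adjusted p = 0.0866, against 0.0866 to 1 over its alternatives). Mmp9 did not share the high values of WT mouse 2, which was the lowest WT mouse for this gene and the highest for Mmp12, Mmp13, Mmp8 and Mmp19.

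Mmp2 (chromosome 8, 92827291 to 92853420, plus strand) measured 19.2, 60.2 and 51.0 CPM in KO mice, against 14.8, 23.5, 19.7 and 33.4 CPM in WT mice. KO mice 2 and 3 were above every WT mouse, and KO mouse 1 lay within the WT range. For this gene the log2 fold change was 0.93 (SE 0.39, adjusted p by edgeR 0.921), with a range of 0.62 to 1.31 over the alternatives. It was the one gene of the 9 tested that was higher in KO mice at an unadjusted p under 0.05.

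Mmp14, the membrane protease that activates the Mmp2 proenzyme at the cell surface with Timp2 as adaptor, lies on chromosome 14 (54431612 to 54445364, plus strand). It measured 609, 901 and 783 CPM in KO mice, against 758, 668, 705 and 566 CPM in WT mice. The groups overlapped and the highest mouse was within 1.48-fold of the lowest in KO mice and 1.34-fold in WT mice. A log2 fold change of 0.18 (SE 0.19, adjusted p by edgeR 1) was fitted, with a 95% interval of 0.835 to 1.54 for the ratio of KO to WT. By mean CPM it ranked 148th of the 16234 genes tested.

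Of the inhibitors, which are all secreted, Timp1 (chromosome X, 20870166 to 20874735, plus strand) is known as inducible. It measured 18.3, 1.83 and 0.845 CPM in KO mice, against 3.66, 25.9, 4.15 and 36.8 CPM in WT mice. WT mice 4 and 2 and KO mouse 1 were high and the other 4 mice low, so the level spread 21.7-fold in KO mice and 10.1-fold in WT mice. Fitted over the 7 mice, the log2 fold change was -1.33 (SE 1.13, adjusted p by edgeR 1), -3.75 without KO mouse 1 and -0.71 without WT mouse 4. Timp1 lies within the span of Syn1 on the opposite strand with 0 shared exon bases, and Syn1 held 212 counts in all. These were 114, 0 and 9 in KO and 14, 6, 6 and 63 in WT libraries, most in KO mouse 1 and WT mouse 4. Any part of Syn1 reads in the Timp1 counts was not tested.

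Timp2 (chromosome 11, 118301069 to 118355740, minus strand) inhibits most of these proteases and also takes part in the activation of Mmp2. It measured 202, 274 and 239 CPM in KO mice, against 259.8, 258, 209 and 316 CPM in WT mice, with overlapping groups. Its log2 fold change was -0.13 (SE 0.19, adjusted p by edgeR 1), and the 95% interval of the ratio of KO to WT was 0.678 to 1.23. Limma voom with library weights gave 0.02, so the sign depended on the tool.

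Timp3 (chromosome 10, 86300372 to 86349506, plus strand), which binds to the matrix and also inhibits ADAM proteases, had 0 counts in each KO library, against 0, 3, 2 and 27 counts in WT libraries. A count of 0 allows up to 3 counts, or 0.102 to 0.122 CPM in the KO libraries, for counting error only. WT mouse 4, at 0.987 CPM, was the only mouse above 3 counts, and 21.41% of the 50-base words of Timp3 transcripts occur in other transcripts. Timp3 shares 1733 exon bases with Syn3 of the opposite strand, so reads of the shared stretch are uncertain. Syn3 held 0, 0 and 3 counts in KO and 0, 20, 0 and 0 in WT libraries. Timp3 did not enter the test.

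**Figure D3:**
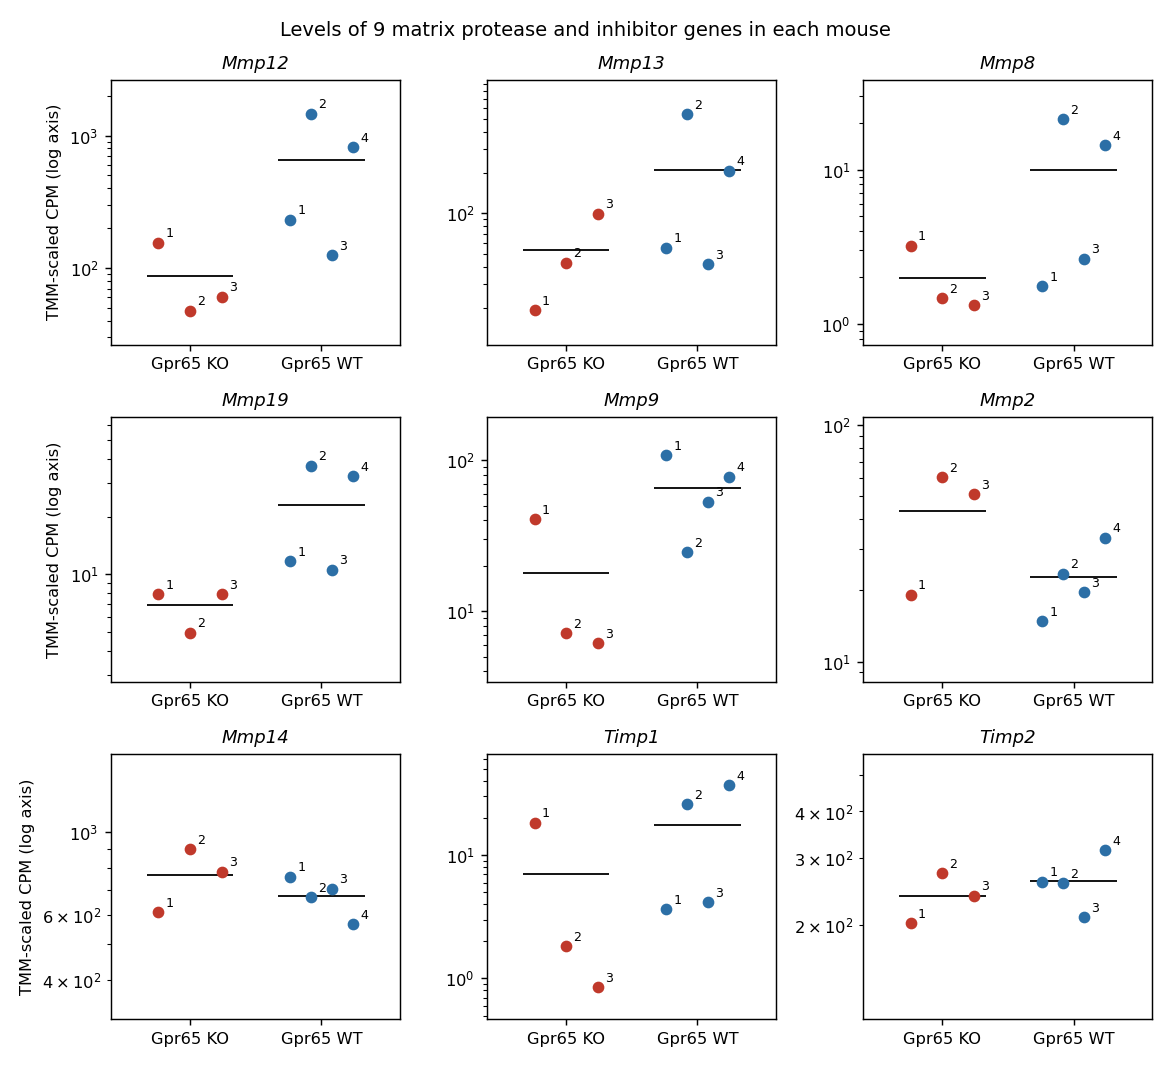
Level of each tested gene in each mouse as TMM-scaled CPM on log axes, with 3 KO mice left and 4 WT mice right. Points carry the mouse number and bars are arithmetic means. In the panels of Mmp12, Mmp13, Mmp8 and Mmp19 WT mice 2 and 4 stand highest, and in the Mmp19 panel alone the groups do not overlap.

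Each gene was then set against its own mean of log2 CPM over the 7 mice. The spread between mice, as the biological coefficient of variation of the fit, was 93.4% for Timp1, 74.9% for Mmp13, 72.4% for Mmp8, 67.7% for Mmp12 and 61.8% for Mmp9. It was 43.9% for Mmp19, 37.5% for Mmp2, 21.3% for Mmp14 and 20.7% for Timp2, against a common value of 42.9%. The most alike pair was Mmp14 and Timp2, with a root mean square difference of 0.298 in log2 units, a small distance for 2 genes that varied little. Among the variable genes Mmp8 and Mmp12 were closest (0.596), then Mmp8 and Mmp19 (0.653) and Mmp12 and Mmp19 (0.775). Mmp2 and Timp1 were the farthest apart, at 2.27.

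WT mouse 2 was 2.83 above the mean of the 7 mice for Mmp12, 2.74 for Mmp13, 2.50 for Mmp8 and 1.56 for Mmp19 in log2 units, but 0.27 below it for Mmp9. KO mouse 1 was the highest KO mouse for Mmp8, Mmp9, Mmp12 and Timp1, and the lowest for Mmp2, Mmp13, Mmp14 and Timp2. The variable genes therefore did not form a single pattern over the mice.

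**Figure D4:**
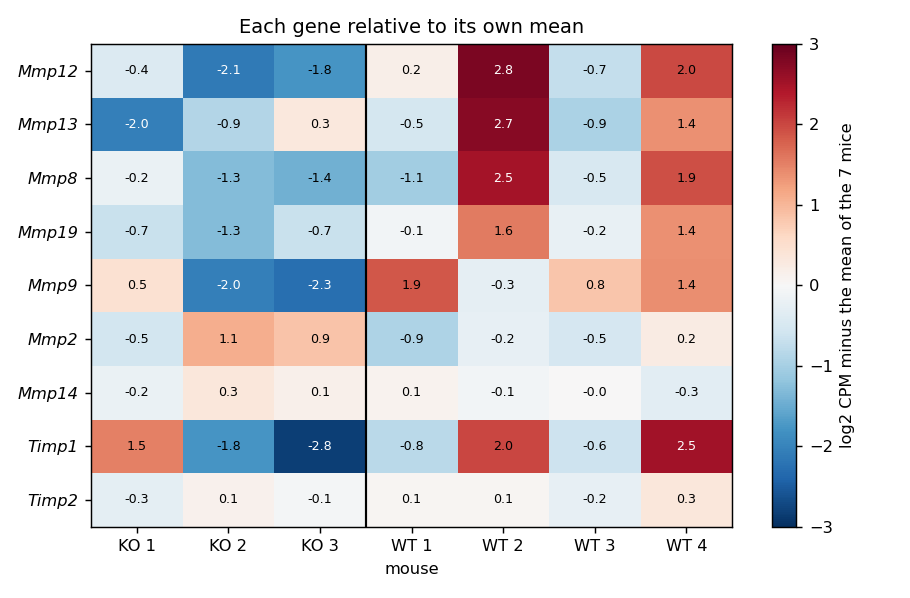
Log2 CPM of each tested gene minus its mean over the 7 mice (colour and printed value, rows are genes, columns are mice, KO left of the line and WT right). WT mice 2 and 4 are red for Mmp12, Mmp13, Mmp8, Mmp19 and Timp1, Mmp9 is highest in WT mouse 1, and the rows of Mmp14 and Timp2 are near 0.

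Among 10304 named protein-coding genes of average log2 CPM of at least 1, the 3 whose centred log2 CPM lay closest to that of Mmp12 over the 7 mice were Pi16, Rab44 and Pgf. Pi16 (root mean square difference 0.360) measured 2.70, 1.10 and 1.32 CPM in KO mice, against 6.99, 26.4, 4.65 and 18.5 CPM in WT mice. Rab44 (0.557), a large Rab-family gene, measured 10.9, 3.17 and 5.92 CPM in KO mice, against 8.36, 48.0, 8.46 and 32.2 CPM in WT mice. Pgf (0.574), placental growth factor, measured 5.91, 1.46 and 5.96 CPM in KO mice, against 6.91, 42.3, 6.30 and 37.3 CPM in WT mice. All 3 were highest in WT mouse 2 and next in WT mouse 4, as Mmp12 was, which follows from how they were chosen.

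Of the other 17 genes of the metalloproteinase and inhibitor families, Mmp25 averaged 14.9 CPM in KO and 12.8 CPM in WT mice, and the rest were lower. Of the 17 genes 4 passed the filter, 2 with a positive and 2 with a negative fold change, and 0 were called by edgeR. None of the 4 reached an unadjusted p under 0.05 either, where 5.37% of all genes did. Mmp25, a membrane-anchored protease known from leukocytes, was the highest at 7.93, 16.5 and 20.2 CPM in KO mice, against 4.99, 25.9, 8.30 and 12.2 CPM in WT mice. Mmp11 measured 5.47, 1.99 and 1.51 CPM in KO mice, against 2.41, 4.51, 1.66 and 5.15 CPM in WT mice. Mmp16, with the smallest p of these 4 (0.329), had 3.45, 0.407 and 0 CPM in KO mice, against 1.04, 0.309, 0.398 and 0 CPM in WT mice.

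Genes that activate the proteases or restrain them by other means held 14 tested members, 4 with a positive and 10 with a negative fold change and a median of -0.25. EdgeR called 0, and 2 reached an unadjusted p under 0.05, both lower in KO, where 2.79% of all genes were lower at that value. Their summed CPM was 2831, 2459.8 and 2563 in KO mice, against 3136, 3331, 3317 and 3389 in WT mice, apart between the groups, but overlapping once Lrp1 was left out. Lrp1, the receptor that takes up metalloproteinases and their inhibitor complexes, measured 711, 466 and 633 CPM in KO mice, against 1093, 554, 1150.5 and 797 CPM in WT mice. Plaur, the urokinase receptor, measured 365 to 480.1 CPM in KO mice, against 319.8 to 779 CPM in WT mice. Serpinb2, an inhibitor of urokinase, had the smallest p (0.00453, adjusted p = 0.730), with 0, 0.0407 and 0.0735 CPM in KO mice, against 0.125, 5.02, 0.498 and 3.11 CPM in WT mice. The counts behind these values were 0, 1 and 2 in KO and 3, 130, 15 and 85 in WT libraries, so most were near 0. Serpinb2 was another gene highest in WT mice 2 and 4.

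The ADAM and ADAMTS proteases, a related branch of zinc proteases, held 9 tested members, 4 with a positive and 5 with a negative fold change. EdgeR called 0, and 1 was lower in KO at an unadjusted p under 0.05, as were 2.79% of all genes. Adam8 had the smallest p (0.0182, adjusted p = 0.823) and was also the highest, at 554, 162 and 253 CPM in KO mice, against 622, 699.7, 592 and 901 CPM in WT mice. Each KO mouse lay below each WT mouse for Adam8, as for 3.33% of all genes. Adam15 measured 214, 224 and 192 CPM in KO mice, against 300.3, 193, 259.7 and 274 CPM in WT mice.

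Matrix proteins and other substrates held 12 tested members, 11 with a negative fold change, and a median of -0.60, against 50.3% negative over all genes. EdgeR called 0, and 3 reached an unadjusted p under 0.05, each lower, where 2.79% of all genes were lower at that value. Their summed CPM was 8040.4, 6505 and 5734 in KO mice, against 12550.2, 10389, 11002 and 10964 in WT mice, and the groups did not overlap. Tgfbi was 34.0% to 64.9% of that sum. Taken singly, 3 of the 12 genes did not overlap between the groups, where 6.12% of all genes did not. The list was chosen with earlier results of these data known, so the separation of its sum is a description and no test. Tgfbi and Lgals3 were the highest, and Ecm1, an extracellular matrix protein, had the smallest p (0.00344, adjusted p = 0.729). Ecm1 measured 377, 251 and 257 CPM in KO mice, against 423, 546, 537 and 628 CPM in WT mice.

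Genes that regulate metalloproteinase expression held 16 tested members, 9 with a positive and 7 with a negative fold change and a median of 0.09. EdgeR called 0, and 2 were higher in KO at an unadjusted p under 0.05, as were 2.57% of all genes. The AP-1 genes Fos and Junb were the highest, Fos at 4457, 6344 and 5323 CPM in KO mice, against 4944, 5133, 4990.3 and 4702 CPM in WT mice. Junb measured 2151, 3632 and 3563 CPM in KO mice, against 2108, 3883, 2435 and 3402 CPM in WT mice, and both genes overlapped between the groups. Tnf, an inflammatory cytokine, had the smallest p (0.00748, adjusted p = 0.750) and measured 40.7, 57.4 and 52.1 CPM in KO mice, against 28.5, 33.2, 38.4 and 28.2 CPM in WT mice. Jund was listed at 0 counts in every library.

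Markers of other cells were high in some of the same mice. The MC38 and epithelial list summed to 168, 42.1 and 78.0 CPM in KO mice, against 126, 379.9, 137 and 451 CPM in WT mice, with WT mice 2 and 4 highest as for Mmp12. Between 89.2% and 99.0% of that sum was Cdh1, which alternatively activated macrophages are also known to express. Krt19 was at 0 in every mouse except WT mouse 4, whereas Epcam was found in each, at 1.61 to 3.74 CPM in KO and 2.41 to 5.30 CPM in WT mice. Krt18 measured 0, 0.325 and 0 CPM in KO mice, against 0.915, 0.540, 0.730 and 4.42 CPM in WT mice. Each of the 3 genes of the list that were tested had a negative fold change. Without Cdh1 the list summed to 1.67, 4.56 and 2.06 CPM in KO mice, against 3.62, 4.55, 5.84 and 14.0 CPM in WT mice. WT mouse 4 was then the highest, while WT mouse 2 lay below WT mouse 3 and KO mouse 2.

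The neutrophil list, with Mmp8 and Mmp9 left out, summed to 86.8, 182 and 137 CPM in KO mice, against 82.3, 195, 90.0 and 88.6 CPM in WT mice. Most of it was Csf3r (51.5% to 99.4%), and without Csf3r the sum was 21.1, 1.02 and 3.64 CPM in KO mice, against 16.3, 94.7, 8.93 and 35.3 CPM in WT mice. Ly6g, the defining surface marker, had 0 counts in all 7 libraries, and Ngp and Camp were at 0 in all but WT mouse 1. Other genes of the list were present, and S100a8, S100a9 and Cxcr2 were highest in WT mouse 2, at 15.0, 13.1 and 16.2 CPM. In WT mouse 4 they were at 10.6, 5.19 and 3.29 CPM, and in KO mouse 1 at 6.49, 5.12 and 7.21 CPM. Retnlg was also highest in WT mouse 2. Other tested genes of the list were highest elsewhere, Ltf in WT mouse 4 (4.75 CPM), Cd177 in WT mouse 3 (2.22 CPM) and Csf3r in KO mouse 2 (181 CPM). Of the 7 genes of the list that were tested, 6 had a negative and 1 a positive fold change. The fibroblast list summed to 329, 143 and 54.4 CPM in KO mice, against 141, 154, 240.2 and 370.4 CPM in WT mice, of which Col3a1 was 54.9% to 80.5%. The T cell list was highest in KO mouse 3, at 469.8 CPM, against 20.7 and 67.4 CPM in the other KO mice and 30.7 to 105 CPM in WT mice. The endothelial list summed to 33.8, 41.2 and 60.1 CPM in KO mice, against 34.3, 173, 44.6 and 68.7 CPM in WT mice, and the dendritic cell list to 85.9, 54.9 and 80.1 CPM in KO mice, against 41.1, 236, 97.7 and 76.8 CPM in WT mice. The part of these markers in the values of the proteases and inhibitors was not tested.

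**Figure D5:**
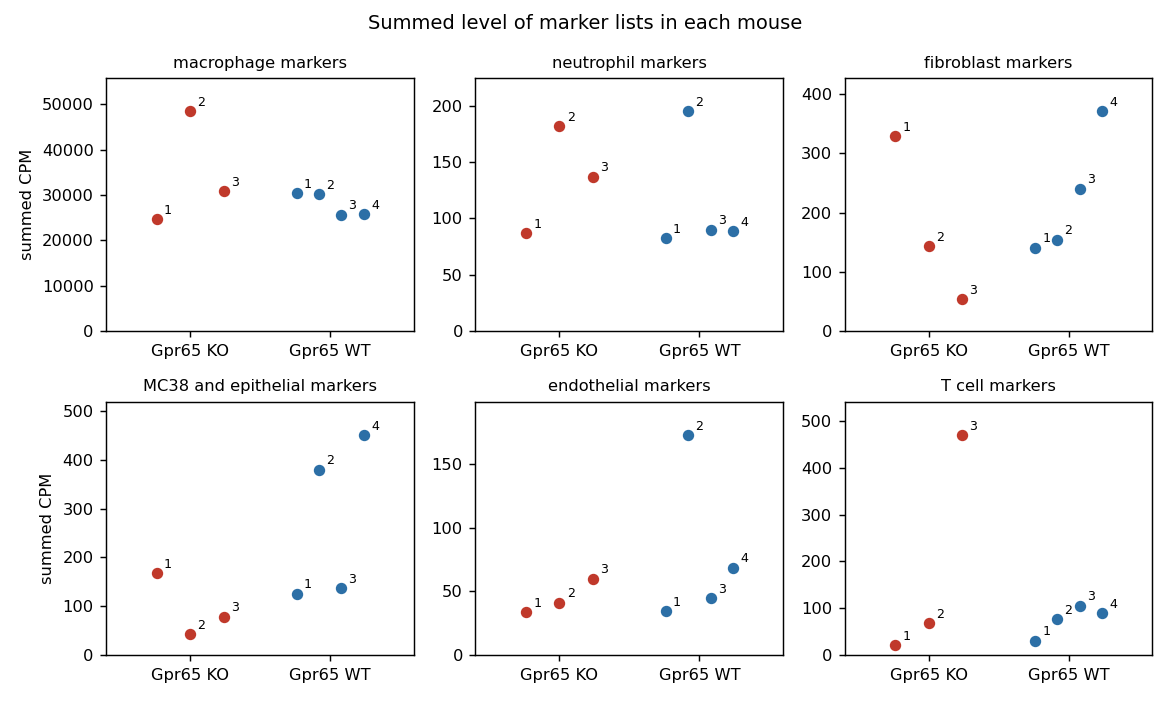
Summed CPM of 6 marker lists in each mouse (linear axes from 0, 3 KO mice left and 4 WT mice right, points labelled with the mouse number). The MC38 and epithelial sum is highest in WT mice 2 and 4, at 379.9 and 451 CPM, and the fibroblast sum in WT mouse 4 and KO mouse 1. Cdh1 alone makes up 89.2% to 99.0% of the MC38 and epithelial sum, and without it WT mouse 2 is not high.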

How the data were processed

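The authors deposited a table of raw read counts per gene, 1 column a mouse, whole numbers without normalization. BWA 0.7.12, cutadapt 1.15, DESeq2 1.24.0, FastQC 0.11.5 and the build GRCm38 are named, without role or order, per the submitters' processing notes. Neither the counting program nor its strand setting is stated there. Libraries came from polyA RNA by a SMART-seq kit, per the labels' protocols.

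Symbols came from GENCODE M21 by Ensembl identifier (53274 of 53379 matched). The fit used edgeR 4.0.16 (R 4.3.3, limma 3.58.1, DESeq2 1.42.0) with all 7 libraries, genotype as the only term, TMM scaling, the default filter by group and robust estimation, and was tested on simulated data. Log2 CPM used a prior count of 2, and the standard error (SE) is the absolute fold change over the root of F. Each library is a separate mouse per the labels, and libraries of one group differed from each other with a chi-square per degree of freedom of at least 29.9. Levels per length used merged exons, 888 bases for Timp1 to 8144 for Timp3. Named genes were the 10 genes, and of each pathway list the 2 highest-expressed and that with the smallest p, besides the 3 genes nearest to Mmp12. The genes and lists were chosen with earlier results of these data known. Alternatives were other scalings, filters and tools, the mouse number as a block, a threshold of 0.1 and each library left out.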

Additional observations from a re-analysis of the deposited data

Results flagged for a closer look

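Sets of 4 WT values were examined for a mouse far from the other 3, by the distance to its neighbour divided by the range of the 4. Of 23 sets, for the 10 genes and 13 list sums, 2 were past Dixon's critical value for 4 samples, and chance flags about 1 in 20. WT mouse 4 stood apart for Timp3 (0.883), at 27 counts against 0, 3 and 2 in WT mice 1 to 3. WT mouse 2 stood apart for the summed neutrophil markers (0.932), at 195 CPM against 82.3, 90.0 and 88.6 CPM in WT mice 1, 3 and 4. Retnlg alone gave 48.6 CPM of that sum in WT mouse 2, and 0.874, 2.82 and 10.6 CPM in WT mice 1, 3 and 4. For Mmp12 and Mmp13 the measure was 0.485 and 0.670, below the critical value, since WT mouse 4 was also high. The KO group of 3 was not examined.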

How the results depend on the processing

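Over 16 alternatives for each of the 9 tested genes, 143 of 144 fold changes kept their sign, and the exception was Timp2, at 0.02 by limma voom with library weights. Of the 9 genes, DESeq2 called 1 (Mmp19) and every other alternative called 0, the 7 fits that left out 1 library and the threshold of 0.1 included. Over all genes the count of 6 (4 higher, 2 lower) was 11 with no filter on low counts and 114 by DESeq2 (43 higher, 71 lower). It lay between 3 and 14 with 1 library left out, highest without KO mouse 1 and lowest without KO mouse 2. DESeq2 size factors and upper-quartile factors each gave 4 higher and 1 lower. Library totals without scaling moved the median of all genes to -0.108, against -0.002 with TMM, and no gene of the set changed its call. The mouse number does not pair KO with WT mice by the labels. With it as a replicate block in mice 1 to 3 of each genotype, 1 gene was called over all genes, against 5 in the same 6 libraries without the block, which is the fit without WT mouse 4. Deviations of same-numbered mice correlated at 0.05 to 0.09, and 1 of 3 KO mice correlated best with the WT mouse of its number. The length of the principal transcript was an alternative chosen after the data were seen. Low counts kept Timp3 from the test. The spread between mice was wide for Mmp8, Mmp12 and Mmp13 among WT mice and for Timp1 in both groups. Over the alternatives Timp1 lay between -3.75 and -0.71, and Mmp13 between -2.75 and -0.30.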

Other observations

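Spp1 (osteopontin) and Fn1 (fibronectin), matrix proteins that bind integrins, followed Mmp9 rather than Mmp12 over the mice. They were chosen after their values were seen, so the likeness is a description with no test. Spp1 measured 1410.1 CPM in KO mouse 1 and 222 and 169.9 CPM in KO mice 2 and 3, against 2392, 881, 1555 and 1824 CPM in WT mice 1 to 4, which is the same order of the 7 mice as for Mmp9. Fn1 measured 1102, 220.2 and 267 CPM in KO mice 1 to 3, against 3012, 1380.0, 2148 and 2235 CPM in WT mice 1 to 4. For Fn1 each KO mouse lay below each WT mouse, as for 3.33% of all genes. The log2 fold changes were -1.47 (SE 0.72, edgeR adjusted p = 0.973) for Spp1 and -2.05 (SE 0.58, adjusted p = 0.736) for Fn1, and neither passed.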
